A study of Mus musculus with 12 samples.

Results

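The 10 genes described here carry the main steps of antigen presentation by MHC class I: H2-K1, H2-D1, B2m, Tap1, Tap2, Tapbp, Psmb8, Psmb9, Psmb10 and Nlrc5. They were taken by gene symbol, as a set chosen with earlier results of these data known, and all 10 were found once each among the 41042 genes listed for every library. All 10 also passed the filter on low values, which left 17623 genes for testing. The libraries are bulk RNA-seq of prostate from 12 male mice, all labelled C57BL/6 and 15 months old, with 3 mice of each of 4 genotypes. WT mice were littermates without the lesions. Pb-ERG mice carry a TMPRSS2-ERG transgene under the probasin promoter (Pb), which is active in prostate epithelium. In Trp53pc-/- mice a Cre recombinase under the same promoter deletes loxP-flanked Trp53 alleles, so the other cells of the prostate keep the gene, and Pb-ERG;Trp53pc-/- mice carry the transgene, the Cre and the floxed alleles together. The question set for the series was which genes differ in Pb-ERG;Trp53pc-/- mice. R172H mice are not used here.

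MHC class I molecules display short peptides from proteins made inside the cell, and CD8+ T cells read them. The immunoproteasome subunits Psmb8, Psmb9 and Psmb10 replace the constitutive catalytic subunits and cut proteins into peptides, the transporter made of TAP1 and TAP2 carries the peptides into the endoplasmic reticulum, and tapasin (Tapbp) holds the transporter next to the class I heavy chain (H2-K1 or H2-D1) paired with beta-2-microglobulin (B2m). Most of these genes are induced by interferon, and Nlrc5 is a transactivator that acts on class I promoters.

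Of the 10 genes, 7 lie on chromosome 17, in or beside the MHC (build GRCm38). H2-K1 is at chr17:33996017-34000333 on the minus strand and H2-D1 at chr17:35262730-35267499 on the plus strand. Between them Tap1 (chr17:34187553-34197225) and Psmb9 (chr17:34181988-34187764) stand head to head on opposite strands. Psmb8 (chr17:34197790-34201454) and Tap2 (chr17:34203527-34216321) follow Tap1 on the plus strand, and Tapbp (chr17:33919332-33929288) lies on the other side of H2-K1. B2m is at chr2:122147686-122153083, Psmb10 at chr8:105935728-105938392 and Nlrc5 at chr8:94472763-94527272. The exons of Tap1 and Psmb9 share 212 bases where they meet, and the exons of Psmb8 and Tap2 share 498 and 165 bases with the antisense gene Gm20496. Those of Tap2 also share 533 bases with Gm15821 and those of Tapbp 904 bases with Gm19412. The library kit did not mark strand, so in these shared stretches the reads of each pair cannot be told apart. H2-K1 and H2-D1 are close paralogs, and how reads shared between such copies were counted is not given in the sources used here.

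The promoter sequences below are shown because several members share letters in them. RefSeq windows of the 250 bases before the start site (GRCm38.p6) were found for 8 of the 10 genes. Tap2 and Nlrc5 had none. Capitals mark TGACG (the core of the X2 box or CRE) in all 4, the longest run that H2-K1 and H2-D1 share, and in B2m, further upstream, a match to the core of the interferon-stimulated response element (GAAA, 2 bases of any kind, GAAA) and one to an NF-kB motif (GGG, 2 bases of any kind, TTTCC, here on the other strand). No bases in capitals belong to 2 of these.
H2-K1, chr17:34000348-34000597, minus strand: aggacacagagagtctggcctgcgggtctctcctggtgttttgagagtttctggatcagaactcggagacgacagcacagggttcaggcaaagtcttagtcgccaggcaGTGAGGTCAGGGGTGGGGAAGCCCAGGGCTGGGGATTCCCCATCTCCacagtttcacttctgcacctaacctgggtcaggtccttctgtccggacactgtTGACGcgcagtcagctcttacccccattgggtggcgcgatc
H2-D1, chr17:35262844-35263093, plus strand: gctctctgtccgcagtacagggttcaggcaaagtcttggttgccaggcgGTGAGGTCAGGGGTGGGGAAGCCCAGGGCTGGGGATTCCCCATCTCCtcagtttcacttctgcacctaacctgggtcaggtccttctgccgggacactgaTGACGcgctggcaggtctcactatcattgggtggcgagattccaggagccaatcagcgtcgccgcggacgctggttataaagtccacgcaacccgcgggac
B2m, chr2:122147437-122147686, plus strand: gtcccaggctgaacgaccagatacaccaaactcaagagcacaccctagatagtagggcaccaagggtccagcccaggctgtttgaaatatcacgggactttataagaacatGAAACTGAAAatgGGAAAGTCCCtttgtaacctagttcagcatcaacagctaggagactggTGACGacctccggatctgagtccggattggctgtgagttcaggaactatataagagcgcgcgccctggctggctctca
Tap1, chr17:34187306-34187555, plus strand: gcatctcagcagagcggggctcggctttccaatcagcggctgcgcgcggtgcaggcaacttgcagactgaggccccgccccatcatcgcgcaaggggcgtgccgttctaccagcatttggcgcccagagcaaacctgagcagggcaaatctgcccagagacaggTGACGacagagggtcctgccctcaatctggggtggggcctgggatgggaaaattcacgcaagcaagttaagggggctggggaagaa
Searched on both strands, TGACG was found in 5 of the 8 genes (H2-K1, H2-D1, B2m, Tap1 and Psmb9) and in 19.8% of the 27025 genes with a window. The letters searched for the response element core and the NF-kB motif were found in B2m alone among the 8, against 3.46% and 1.65% of all genes. Other spellings of these elements were not searched, so a window without a match may still hold one. The letters GGGGATTCCCC in the run that H2-K1 and H2-D1 share are close to the NF-kB letters searched but were not counted. Of the letters that ERG and its relatives of the ETS family recognise, the short core GGAA was found in 8 of the 8 and in 94.2% of all genes, and the longer form GGAAGT in 0 of the 8 and in 22.2% of all genes. The run that the H2-K1 and H2-D1 windows share is 47 bases long, and 2 genes of all those with a window, H2-K1 and H2-D1 themselves, hold it. The Tap1 and Psmb9 windows cover 225 bases in common, so their TGACG is the same site. A match describes letters in a window of the reference sequence and does not show binding.

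Depth ranged from 19747635 to 32565774 fragments per library. Erg marked the transgene, with 0.268 to 0.925 FPKM (fragments per kilobase of exon, scaled to the library total) in the 6 libraries without it and 8.26 to 27.1 FPKM in the 6 with it. Trp53 as a whole gene was at 5.32 to 10.6 FPKM in Trp53pc-/- mice and 8.87 to 11.3 FPKM in WT mice, which overlap, and so does not check the deletion. Prostate markers were present in all libraries, but the summed FPKM of 6 luminal markers was 929 in Pb-ERG;Trp53pc-/- replicate 3 against 6251 to 21057 in the other 11. Its Pbsn, which encodes probasin, was at 53.3 FPKM against at least 5504 FPKM elsewhere. Pb-ERG replicate 1 expressed Erg at 15.8 FPKM but stood near the WT libraries in most of the 10 genes, as its values in the next paragraphs show. In bulk tissue, fewer cells of a type and less RNA per cell cannot be told apart.

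Across the 6 libraries with the transgene, 9 of the 10 genes were higher than across the 6 without it (limma, Benjamini-Hochberg adjusted p under 0.05), where 29.3% of all tested genes were called higher. B2m was the exception. This transgene comparison is the average of Pb-ERG minus WT and Pb-ERG;Trp53pc-/- minus Trp53pc-/-. The median difference of the 10 genes was 1.34 on the log2(FPKM + 1) scale, against 0.26 for all tested genes, and the differences ranged from 0.80 for B2m to 2.04 for Psmb8. Because of the 1 added, weakly expressed genes have smaller differences on this scale than their FPKM ratios. None of the 10 passed an adjusted p of 0.001 in limma, which 1.06% of tested genes passed upwards. The study's methods set this threshold for DESeq2, a different test from the limma fit used here. For 3 of the 10, H2-K1, Tap2 and Tapbp, every transgenic library was above every other library, as for 11.8% of tested genes.

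**Figure D1:**
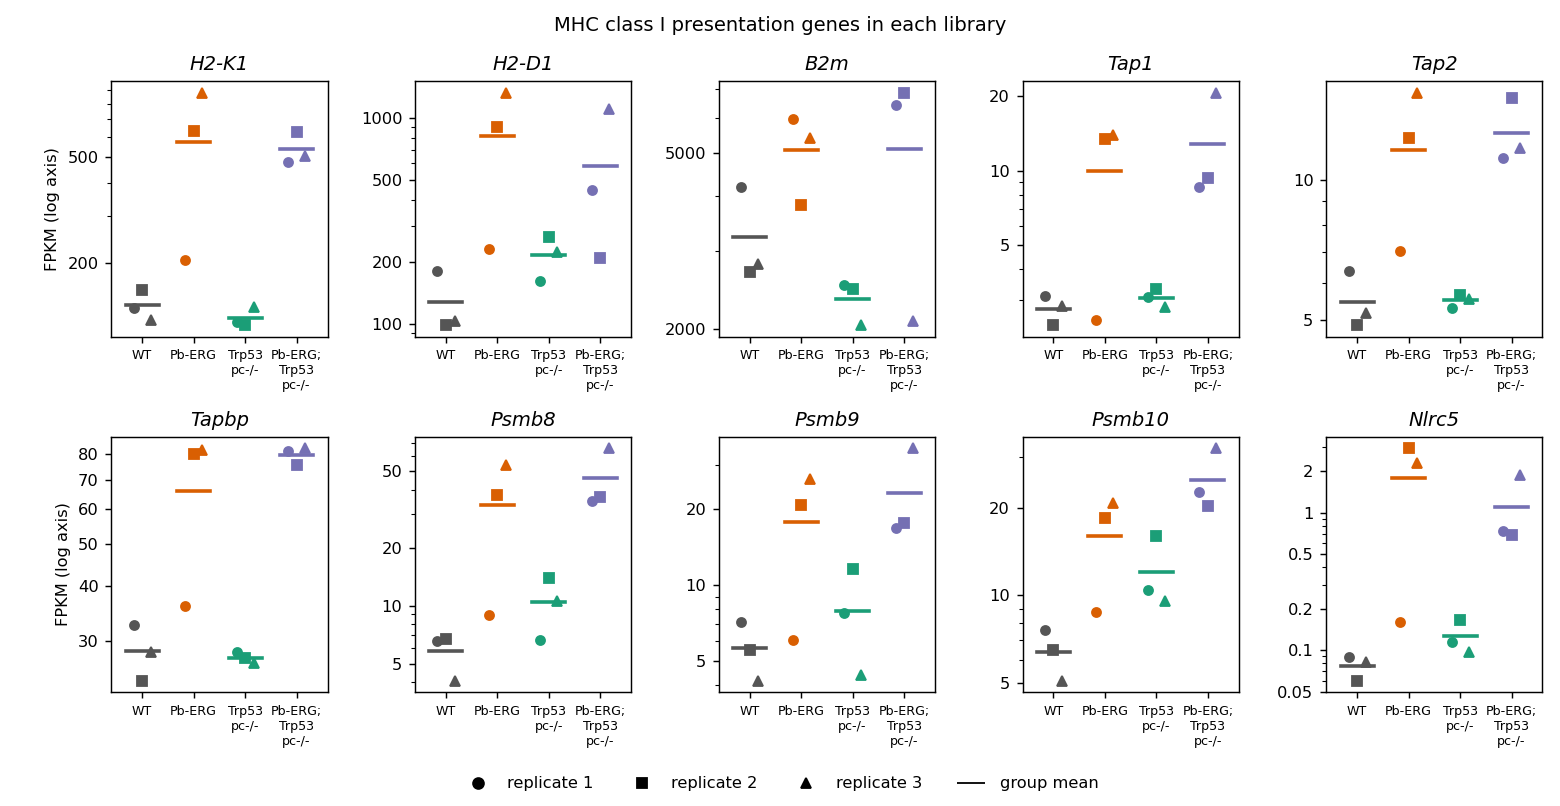
FPKM (log axis) of each of the 10 genes in the 12 libraries, by genotype. Each symbol is 1 mouse and each bar the mean of 3. For H2-K1, Tap2 and Tapbp all 6 transgenic libraries lie above all 6 others, and Pb-ERG replicate 1 (circle) is the lowest transgenic library for 8 of the 10 genes.

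The classical heavy chain H2-K1 was at 135, 158 and 121 FPKM in WT replicates 1 to 3 and at 119.8, 116 and 136 FPKM in Trp53pc-/- mice. With the transgene it reached 204, 632 and 879.6 FPKM in Pb-ERG mice and 480.3, 624 and 507 FPKM in Pb-ERG;Trp53pc-/- mice. All 6 transgenic libraries were above all 6 others, with the lowest value in Pb-ERG replicate 1. The means were 554 ± 222 FPKM with the transgene and 131 ± 15.7 FPKM without it (SD, n = 6 libraries each), and the log2 difference was 1.96 ± 0.30 (SE, adjusted p = 0.00223, limma).

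H2-D1, the other classical heavy chain, was at 181, 98.5 and 103 FPKM in WT mice and at 161, 265 and 224 FPKM in Trp53pc-/- mice. It was at 229.6, 907 and 1324 FPKM in Pb-ERG mice and at 444, 209.6 and 1104 FPKM in Pb-ERG;Trp53pc-/- mice. The groups of 6 overlapped, since Pb-ERG;Trp53pc-/- replicate 2 lay below 2 of the Trp53pc-/- libraries. The log2 difference for the transgene was 1.77 ± 0.48 (SE, adjusted p = 0.0209, limma), and it missed the threshold without WT replicate 2, Pb-ERG replicate 2 or Pb-ERG replicate 3 (adjusted p = 0.0502, 0.0530 and 0.0524, limma).

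The light chain B2m, the most abundant of the 10 genes per length, was at 4185, 2698 and 2809.8 FPKM in WT mice and at 2514, 2460.2 and 2043 FPKM in Trp53pc-/- mice. In Pb-ERG mice it was at 5977, 3827 and 5424 FPKM, and in Pb-ERG;Trp53pc-/- mice at 6429, 6851 and 2088 FPKM. Of the transgenic libraries, 5 were above 5 of the 6 others, and Pb-ERG;Trp53pc-/- replicate 3 was as low as the Trp53pc-/- libraries. The log2 difference was 0.80 ± 0.50 (SE, adjusted p = 0.231, limma), and limma voom on the recovered fragments gave 0.82 with an adjusted p of 0.0499.

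Both chains of the peptide transporter were higher with the transgene. Tap1 was at 3.12, 2.38 and 2.84 FPKM in WT, 2.496, 13.4 and 13.9 FPKM in Pb-ERG, 3.10, 3.33 and 2.81 FPKM in Trp53pc-/- and 8.60, 9.37 and 20.6 FPKM in Pb-ERG;Trp53pc-/- mice. Only Pb-ERG replicate 1 among the transgenic libraries was at the level of the others. Its log2 difference for the transgene was 1.47 ± 0.35 (SE, adjusted p = 0.0123, limma). Tap2 was at 6.38, 4.88 and 5.17 FPKM in WT, 7.04, 12.3 and 15.4 FPKM in Pb-ERG, 5.33, 5.68 and 5.57 FPKM in Trp53pc-/- and 11.2, 15.0 and 11.7 FPKM in Pb-ERG;Trp53pc-/- mice, so all 6 transgenic libraries were above the rest. The log2 difference of Tap2 was smaller but less variable, at 0.98 ± 0.17 (SE, adjusted p = 0.00332, limma).

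Tapasin had the smallest p of the 10 genes. Tapbp was at 32.6, 24.4 and 28.4 FPKM in WT, 36.0, 80.1 and 81.9 FPKM in Pb-ERG, 28.4, 27.5 and 26.7 FPKM in Trp53pc-/- and 81.5, 75.4 and 82.6 FPKM in Pb-ERG;Trp53pc-/- mice. In 5 of the 6 transgenic libraries it lay within 75.4 to 82.6 FPKM, and the sixth, Pb-ERG replicate 1, was just above WT. The means were 72.9 ± 18.3 and 28.0 ± 2.69 FPKM (SD, n = 6 libraries each), with a log2 difference of 1.30 ± 0.19 (SE, adjusted p = 0.00160, limma).

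The immunoproteasome subunits rose together with the transgene. Psmb8, with the largest log2 difference of the 10 genes, was at 6.58, 6.74 and 4.07 FPKM in WT, 8.90, 37.4 and 53.8 FPKM in Pb-ERG, 6.61, 14.0 and 10.6 FPKM in Trp53pc-/- and 35.02, 36.4 and 65.5 FPKM in Pb-ERG;Trp53pc-/- mice. Psmb9 was at 7.11, 5.54 and 4.16 FPKM in WT, 6.07, 20.9 and 26.4 FPKM in Pb-ERG, 7.75, 11.5 and 4.38 FPKM in Trp53pc-/- and 16.8, 17.7 and 35.05 FPKM in Pb-ERG;Trp53pc-/- mice. For both, every transgenic library except Pb-ERG replicate 1 was above all 6 others. Psmb10 was at 7.57, 6.501 and 5.08 FPKM in WT, 8.75, 18.5 and 20.8 FPKM in Pb-ERG, 10.4, 15.99 and 9.56 FPKM in Trp53pc-/- and 22.7, 20.4 and 32.2 FPKM in Pb-ERG;Trp53pc-/- mice. It was the only one of the 3 subunits with all Trp53pc-/- libraries above WT. The log2 differences for the transgene were 2.04 ± 0.39 for Psmb8, 1.38 ± 0.35 for Psmb9 and 1.07 ± 0.22 for Psmb10 (SE, adjusted p = 0.00485, 0.0157 and 0.00677, limma).

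Nlrc5 was close to the detection limit without the transgene. It was at 0.0892, 0.0599 and 0.0817 FPKM in WT and 0.114, 0.167 and 0.0968 FPKM in Trp53pc-/- mice, which rest on 9 to 24 fragments per library. It was at 0.160, 2.95 and 2.299 FPKM in Pb-ERG and 0.734, 0.689 and 1.90 FPKM in Pb-ERG;Trp53pc-/- mice, or 38 to 536 fragments. Again Pb-ERG replicate 1 stood with the libraries without the transgene. The ratio of mean FPKM was 14.4, while the log2 difference, damped by the 1 FPKM added, was 1.03 ± 0.27 (SE, adjusted p = 0.0176, limma).

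**Figure D2:**
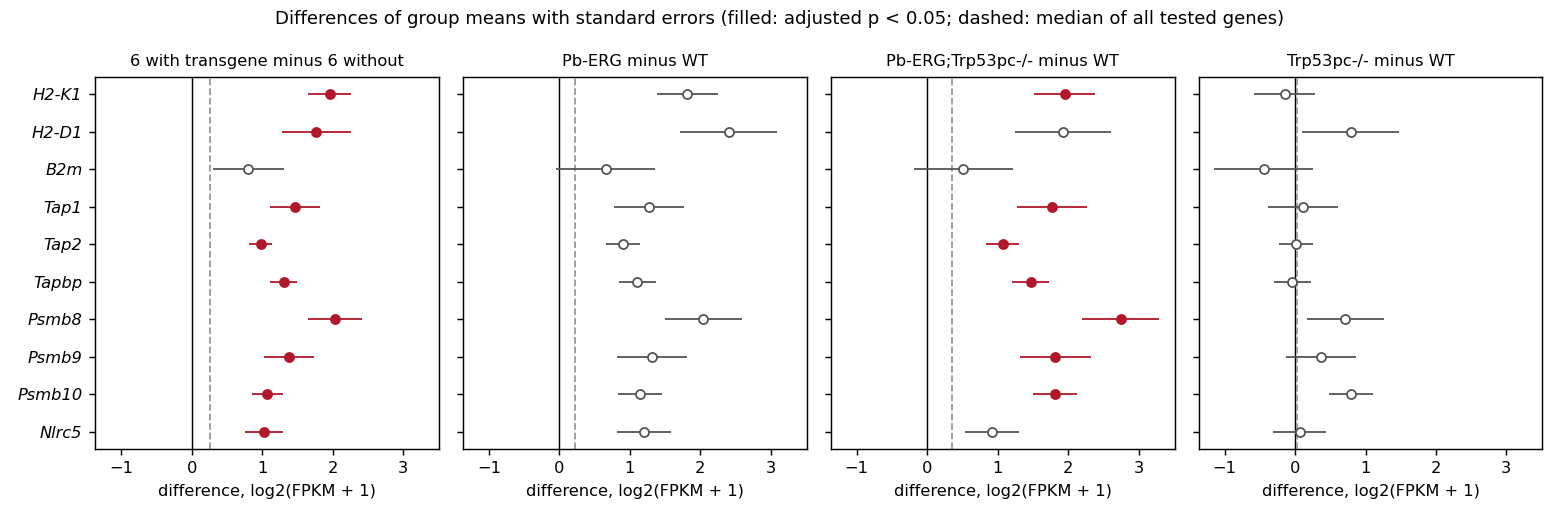
Difference of group means on the log2(FPKM + 1) scale with its standard error for the 10 genes in 4 comparisons; filled points have an adjusted p under 0.05 (limma) and the dashed line is the median of all tested genes. With the transgene 9 of 10 are filled, in Pb-ERG;Trp53pc-/- against WT 7 of 10, and in the other panels 0, although all 10 Pb-ERG points lie above zero.

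Against WT, Pb-ERG;Trp53pc-/- mice had 7 of the 10 genes higher, with 22% of all tested genes called higher. These were Psmb10, Tapbp, Psmb8, H2-K1, Tap2, Psmb9 and Tap1, with log2 differences from 1.07 for Tap2 to 2.74 for Psmb8 (adjusted p = 0.00588 for Psmb10 to 0.0300 for Tap1, limma). H2-D1 (1.93 ± 0.69), Nlrc5 (0.92 ± 0.38) and B2m (0.51 ± 0.70, SE) did not pass (adjusted p = 0.0631, 0.0980 and 0.601, limma). For 9 of the 10 every Pb-ERG;Trp53pc-/- library was above every WT library, which held for 44.7% of all tested genes, and B2m overlapped. Which control libraries were in the fit mattered: 4 of the 10 were called without WT replicate 2 and 3 without WT replicate 3, with 8.91% and 6.33% of tested genes called higher. Without Pb-ERG;Trp53pc-/- replicate 3, the library with few luminal transcripts, 5 were called, with 14.9% of tested genes.

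In Pb-ERG against WT, 0 of the 10 passed (limma, with 2% of tested genes called higher), although 9 of the 10 had an unadjusted p under 0.05 in limma, as did 21.1% of all tested genes with higher values. Limma voom also called 0. The lowest adjusted p was 0.0570, for H2-K1 (limma, log2 difference 1.81 ± 0.43, SE), and 7 of the 10 did not overlap, with 27.6% of all tested genes above WT in every library. The result rested on 1 library: without Pb-ERG replicate 1, 9 of the 10 passed, with 17.7% of tested genes called higher. Without Pb-ERG;Trp53pc-/- replicate 3, which enters only through the shared spread, 3 passed, with 5.83% of tested genes.

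Against Trp53pc-/- mice, Pb-ERG;Trp53pc-/- mice had 6 of the 10 genes higher, with 18.7% of all tested genes called higher. They were H2-K1, Tap1, Tap2, Tapbp, Psmb8 and Psmb10, with log2 differences from 1.01 for Psmb10 to 2.10 for H2-K1 (adjusted p = 0.00681 for Tapbp to 0.0450 for Psmb10, limma). For 8 of the 10 the groups did not overlap, as for 37.0% of all tested genes, and H2-D1 and B2m overlapped. The count fell to 3 without any one of Trp53pc-/- replicates 1, 2 or 3 or Pb-ERG;Trp53pc-/- replicates 1 or 3, with 8.35% to 15% of tested genes called higher. It was also 3 (H2-K1, Tapbp and Psmb8) after median-of-ratios scaling, where 8.27% of tested genes were called higher.

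The Trp53 deletion gave no call for the 10 genes. Trp53pc-/- against WT, Pb-ERG;Trp53pc-/- against Pb-ERG, the average over both deletion contrasts and the non-additive effect each had 0 of 10 called by limma and by limma voom, with 0%, 0.0170%, 0% and 0% of tested genes called higher by limma. At an unadjusted p under 0.05 (limma), Psmb10 alone was higher in Trp53pc-/- against WT (log2 difference 0.80 ± 0.31, SE) and in the deletion average (0.73 ± 0.22, SE), where 3.29% and 8.38% of all tested genes were. Both other contrasts had 0 of 10 at that unadjusted p, against 10.5% (Pb-ERG;Trp53pc-/- against Pb-ERG) and 4.85% (non-additive) of tested genes. In Trp53pc-/- mice Psmb10 and Nlrc5 were above WT in every library and B2m below it, which held for 8.53% and 6.68% of tested genes. The Nlrc5 values there rest on 9 to 24 fragments. The non-additive effect, the change in Pb-ERG;Trp53pc-/- mice beyond the sum of the single lesions, ranged from -1.26 for H2-D1 to 0.40 for Tapbp on the log2 scale (lowest adjusted p = 0.798, limma).

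Ratios between genes of 1 library do not depend on how libraries are scaled, and they placed the immunoproteasome against the constitutive subunits it replaces. Psmb5, Psmb6 and Psmb7 themselves had log2 differences for the transgene of -0.08, 0.00 and 0.03 on the log2(FPKM + 1) scale (adjusted p = 0.760, 0.999 and 0.872, limma), and after median-of-ratios scaling Psmb7 was at -0.36 (adjusted p = 0.0289, limma). The Psmb8/Psmb5 ratio was 0.305, 0.217 and 0.242 in WT, 0.373, 1.69 and 1.78 in Pb-ERG, 0.151, 0.438 and 0.262 in Trp53pc-/- and 1.501, 0.981 and 1.95 in Pb-ERG;Trp53pc-/- mice. Per length, Psmb8 thus exceeded Psmb5 in 4 of the 6 transgenic libraries and in 0 of the 6 others. The ratio was 4.76-fold higher with the transgene, as a ratio of geometric means (two-sided exact permutation test of 6 against 6 libraries, p = 0.00433, adjusted p = 0.0260 over 12 tests). Psmb9/Psmb6 was 2.86-fold and Psmb10/Psmb7 2.20-fold higher (exact permutation p = 0.00649 and adjusted p = 0.0260 for each). The smallest p that 924 regroupings allow is 0.00216. Psmb10/Psmb7 missed the threshold without any one of Pb-ERG replicates 2 or 3 or the 3 Pb-ERG;Trp53pc-/- libraries (adjusted p = 0.0519 for each, exact permutation test). None of the 3 ratios passed for the Trp53 deletion (adjusted p = 0.367 to 0.896, exact permutation test).

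Within the transporter and the class I complex the ratios did not pass. Tap1/Tap2 was 1.53-fold higher with the transgene (exact permutation p = 0.0779, adjusted p = 0.187). H2-K1/B2m was 2.23-fold higher (exact permutation p = 0.0325, adjusted p = 0.0974) and H2-D1/B2m 1.96-fold higher (adjusted p = 0.367, exact permutation test). H2-K1/B2m was 0.0322, 0.0586 and 0.0430 in WT mice and 0.0747, 0.0911 and 0.243 in Pb-ERG;Trp53pc-/- mice, which do not overlap. In Pb-ERG replicate 1 it was 0.0342, in the WT range, against 0.165 and 0.162 in the other two Pb-ERG mice. Without that library, Tap1/Tap2 and H2-K1/B2m passed (adjusted p = 0.00649 for each, exact permutation test).

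**Figure D3:**
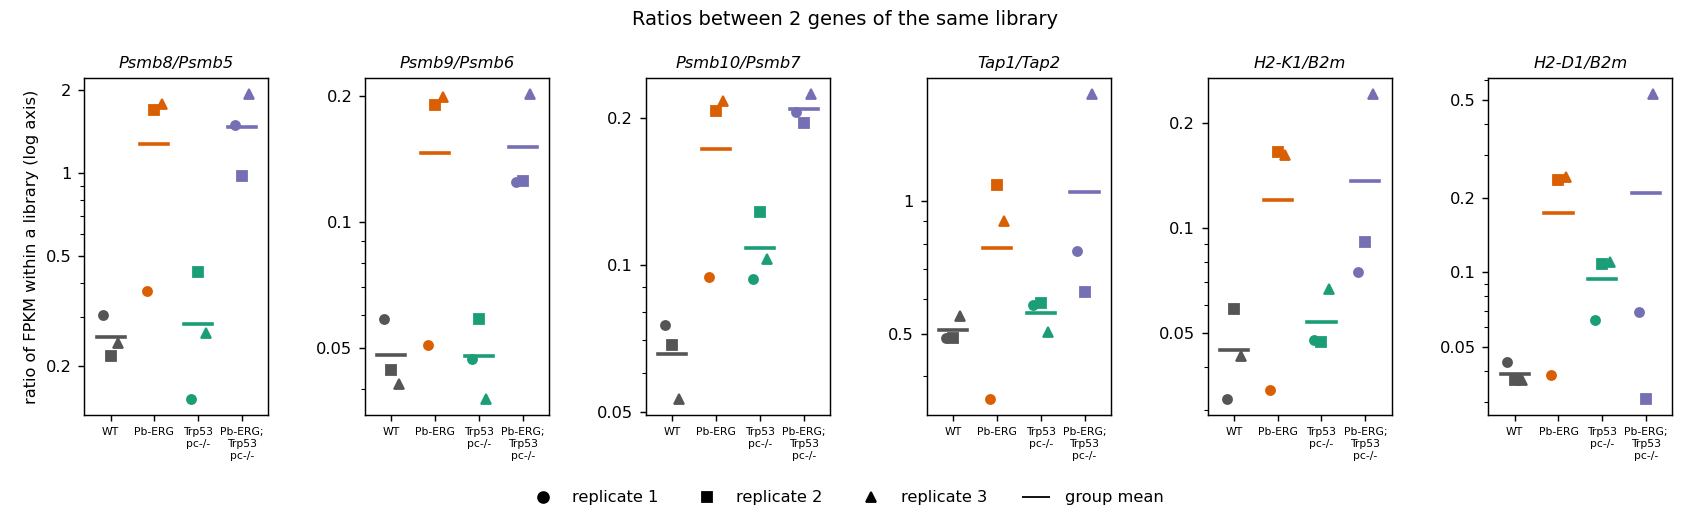
Ratio of FPKM between 2 genes of the same library (log axis) for 6 pairs, by genotype, with 1 symbol per mouse and bars at the mean of 3. In the 3 immunoproteasome panels 5 of the 6 transgenic libraries lie above all 6 others, and Pb-ERG replicate 1 lies with the libraries without the transgene.

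How the libraries were scaled changed both the sizes of the differences and some counts of calls. Genes above 1% of a library's fragments took 24.02% to 34.7% of the fragments in the libraries without the transgene, 24.98% in Pb-ERG replicate 1 and 3.04% to 13.995% in the other 5, and the FPKM of most other genes was higher with the transgene. After median-of-ratios scaling the median of all tested genes went from 0.26 to 0.00 and the calls for the transgene from 5169 higher and 371 lower to 2206 higher and 1781 lower. The same 9 of the 10 genes still passed for the transgene, where 12.5% of tested genes were then called higher, with log2 differences from 0.63 for Tap2 to 1.67 for Psmb8. B2m was at 0.42 (adjusted p = 0.565, limma). In Pb-ERG;Trp53pc-/- against WT the count went from 7 to 4 (H2-K1, Tapbp, Psmb8 and Psmb10), where 8.08% of tested genes were called higher, and calls went from 3880 higher and 247 lower to 1424 higher and 1076 lower. For B2m that difference was then 0.01.

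The heavy chains did not keep a fixed ratio to each other. H2-D1/H2-K1 was 1.34, 0.623 and 0.855 in WT, 1.12, 1.44 and 1.51 in Pb-ERG, 1.35, 2.28 and 1.64 in Trp53pc-/- and 0.925, 0.336 and 2.18 in Pb-ERG;Trp53pc-/- mice. Of the MHC class II genes nearby, H2-Eb1/H2-Ab1 was 0.0290 to 0.0508 in Pb-ERG replicates 2 and 3, Trp53pc-/- replicates 2 and 3 and Pb-ERG;Trp53pc-/- replicate 3. It was 0.566 to 0.649 in replicate 1 of all 4 genotypes and 1.499 to 1.71 in WT replicates 2 and 3 and Pb-ERG;Trp53pc-/- replicate 2. H2-Aa/H2-Ab1 lay between 1.97 and 3.16 in all 12. The 5 libraries with a low H2-Eb1/H2-Ab1 had the 5 highest H2-D1/H2-K1 ratios, and the 3 with a high one had the 3 lowest. All 12 are labelled C57BL/6, and whether the mice carried the same alleles across the MHC was not tested. Reads of an allele other than the reference can align less well, so the FPKM of H2-K1, H2-D1 and the other class I chains, and their differences between groups, could depend on it.

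**Figure D4:**
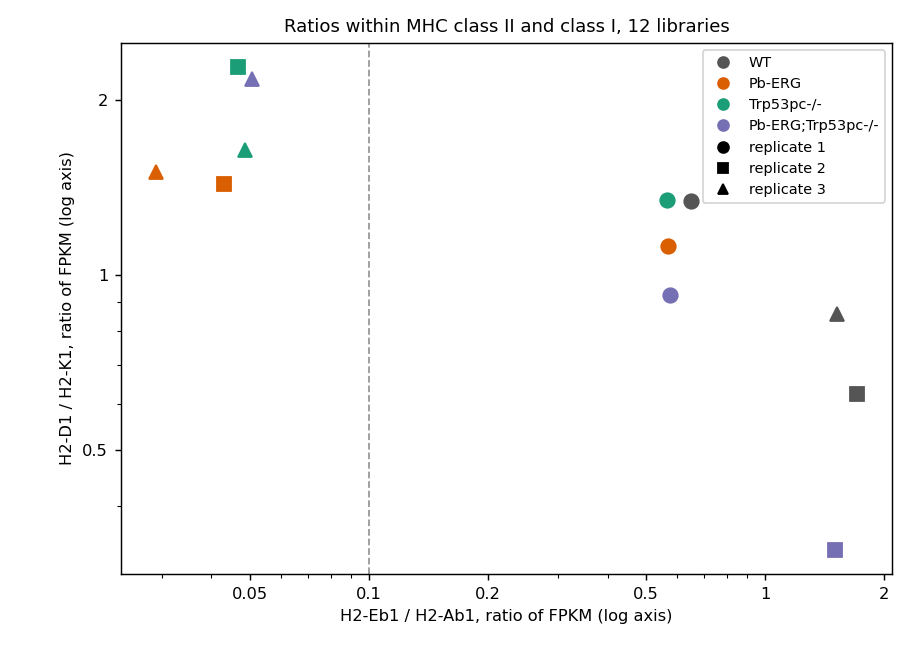
H2-D1/H2-K1 against H2-Eb1/H2-Ab1, as ratios of FPKM (log axes), 1 point per library, coloured by genotype and shaped by replicate number. The libraries form 3 clumps along the x axis, left of the dashed line at 0.1 with 5 libraries and right of it with 4 and 3, and H2-D1/H2-K1 is highest on the left.

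The comparison was repeated within this split, which was chosen after seeing the data. The genotypes are not balanced in it: the 2 libraries below 0.1 without the transgene are both Trp53pc-/-, and all WT libraries are in the other part. The parts therefore do not compare matched genotypes, and the part of alleles in the differences was not tested. Among the 5 libraries below 0.1, 3 with and 2 without the transgene, all 10 genes were higher on average with it, as were 78.1% of tested genes. For 9 of them the libraries did not overlap, against 45.3% of tested genes with every transgenic library above the rest. The median log2 difference was 1.67 (0.65 to 2.37), against 0.34 for all tested genes. Among the other 7, 3 with and 4 without, all 10 were again higher on average, as were 74.8% of tested genes, and 7 did not overlap, against 21.8% of tested genes. The median was 1.07 (0.47 to 1.78), against 0.19 for all tested genes. B2m was at 1.10 there without overlap, and at 0.65 with overlap among the 5. With the split as a block in limma, 9 of the 10 passed for the transgene and 8 in Pb-ERG;Trp53pc-/- against WT, where 29.7% and 18.7% of tested genes were called higher.

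Other genes of the pathway were taken from lists chosen with earlier results of these data known. For the transgene, 29.3% of all tested genes were called higher, and 12.5% after median-of-ratios scaling. Of 7 further loading genes, 4 were higher with the transgene (limma), Psme1 and Psme2 of the proteasome activator, the tapasin relative Tapbpl and the peptide-trimming enzyme Erap1. The largest were Psme1 (log2 difference 0.90 ± 0.18, SE, adjusted p = 0.00649, limma) and Tapbpl (0.88 ± 0.17, SE, adjusted p = 0.00567, limma). Of 15 tested class I heavy chains outside the 10, 9 were higher, led by H2-Q4 (2.11 ± 0.41, SE, adjusted p = 0.00536, limma) and H2-Q6 (1.80 ± 0.62, SE, adjusted p = 0.0486, limma). Several of these chains are close copies of each other, so the single values of such copies are uncertain. In Pb-ERG;Trp53pc-/- against WT, 2 were higher and 1, H2-Q10, a class I chain known from liver, was lower, at 24.8, 21.8 and 17.5 FPKM in WT and 4.33, 14.3 and 4.05 FPKM in Pb-ERG;Trp53pc-/- mice (-1.57 ± 0.46, SE, adjusted p = 0.0347, limma). It was also at 8.05, 4.34 and 6.19 FPKM in Pb-ERG mice (-1.66 ± 0.46, SE) and at 4.53, 1.40 and 1.06 FPKM in Trp53pc-/- mice (-2.88 ± 0.46, SE), below WT in every library, though neither passed (adjusted p = 0.0859 and 0.935, limma). It was named after its values were seen. Of the 14 constitutive core proteasome subunits, 0 passed for the transgene by limma or limma voom, and 1, Psmb2, had an unadjusted p under 0.05 in limma. The smallest p values were those of Psmb2 (0.39 ± 0.17, SE) and Psma1 (0.30 ± 0.14, SE), with adjusted p = 0.0985 and 0.125 (limma). In Pb-ERG;Trp53pc-/- against WT, Psmb2, Psmb3 and Psmb4, named after their values were seen, were higher, by 0.62 to 1.16, so 3 of the 14 passed where 22% of all tested genes did. The core subunits changed sides with the scaling: their median for the transgene was 0.15, and -0.23 after median-of-ratios scaling, where 1 of the 14, Psmb7, was called lower. The same scaling left 2 of the 7 loading genes (Psme1 and Tapbpl) and 4 of the 15 heavy chains called higher.

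Upstream, 17 of 22 interferon and NF-kB signalling genes were higher with the transgene and 0 lower (limma), where 29.3% of all tested genes were called higher. The list median was 0.87, against 0.26 for all tested genes. Irf7, an interferon regulatory factor, had the largest difference (2.22 ± 0.37, SE, adjusted p = 0.00303, limma), then Relb, an NF-kB subunit (1.69 ± 0.19, SE, adjusted p = 0.000527, limma). Irf1, given here for its known place upstream of class I genes, differed by 1.30 ± 0.27 (SE, adjusted p = 0.00693, limma). It was at 6.71 to 10.6 FPKM in the 6 libraries without the transgene and at 8.92 FPKM in Pb-ERG replicate 1, against 17.8 to 43.4 FPKM in the other 5. Of 25 interferon-stimulated genes 22 were higher (median 1.71), led by Isg15 (2.54 ± 0.46, SE, adjusted p = 0.00389, limma) and Ido1 (2.54 ± 0.33, SE, adjusted p = 0.000946, limma). Their summed FPKM was 58.0 to 68.2 in WT and 66.3 to 86.0 in Trp53pc-/- mice, 304 and 319.6 in Pb-ERG replicates 2 and 3, and 284 to 790.0 in Pb-ERG;Trp53pc-/- mice. In Pb-ERG replicate 1, the transgenic library with low class I genes, the sum was 58.6, in the WT range. Ifng, the gene of interferon gamma, was listed at 0 in all 6 libraries without the transgene and in Pb-ERG replicate 1, and at 0.0409 to 0.799 FPKM in the other 5. Ifng did not pass the filter on low values, so these values lie near the detection limit and were not tested. After median-of-ratios scaling 14 of the 22 signalling genes were higher and 1 lower (Ifngr1), and 18 of the 25 interferon-stimulated genes were higher and 1 lower (Mx1). That scaling called 12.5% of tested genes higher and 10.1% lower.

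Markers of immune cells moved with the 10 genes. For the transgene, 29.3% of all tested genes were called higher. Of 17 tested leukocyte markers, 12 were higher with the transgene and 0 lower (limma, list median 1.21), the largest being Nkg7 of cytotoxic lymphocytes (1.87 ± 0.41, SE, adjusted p = 0.00830, limma) and the macrophage enzyme Lyz2 (1.69 ± 0.43, SE, adjusted p = 0.0158, limma). The summed FPKM of all 18 markers found was 51.3 to 117 in WT, 51.9 to 91.2 in Trp53pc-/-, 85.5 to 365 in Pb-ERG and 225 to 564 in Pb-ERG;Trp53pc-/- mice, and 0 markers were at 0 in all libraries of a group. Of 7 MHC class II genes 6 were higher (list median 1.69), with H2-Ab1 (2.39 ± 0.48, SE, adjusted p = 0.00637, limma) and Cd74 (2.31 ± 0.43, SE, adjusted p = 0.00460, limma) in front, and their sum went from 101 to 159 in WT to 691 to 1460.2 in Pb-ERG;Trp53pc-/- mice. Endothelial markers (3 of 3), the luminal keratin Krt8 and Col1a1, Col1a2 and Vim of 6 stromal markers were also higher, while 0 of 4 basal and 0 of 7 seminal vesicle genes passed (0 of either at an unadjusted p under 0.05 in limma, and 0 by limma voom). The summed FPKM of the seminal vesicle genes differed widely between libraries, also within a genotype, from 1.87 in Pb-ERG;Trp53pc-/- replicate 3 to 49570 in Pb-ERG replicate 1. It was 158 and 83.7 in the other Pb-ERG libraries, 48154 in Pb-ERG;Trp53pc-/- replicate 2, 532 to 23620 in WT and 1992 to 9851 in Trp53pc-/- mice. After median-of-ratios scaling 10 of 17 leukocyte markers and 6 of 7 class II genes were higher for the transgene, and Vim and Pecam1 no longer passed. The share of all tested genes called higher was then 12.5%. The part of these cell types, seminal vesicle included, in the differences of the 10 genes was not tested.

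**Figure D5:**
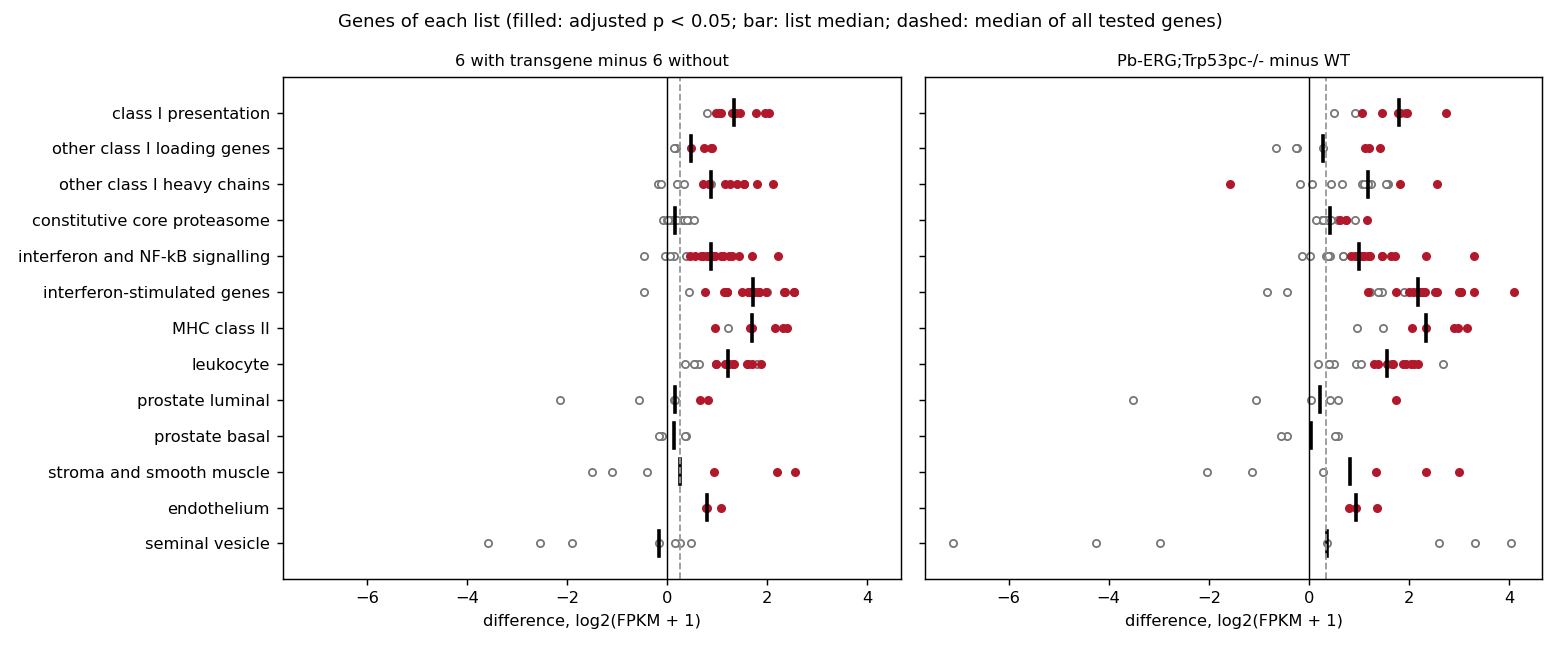
Difference on the log2(FPKM + 1) scale of each tested gene of 13 lists (x axis) for the transgene comparison and for Pb-ERG;Trp53pc-/- against WT; filled points have an adjusted p under 0.05 (limma), bars are list medians and the dashed line the median of all tested genes. The medians of the class I presentation genes, 1.34 and 1.79, lie near those of the interferon-stimulated, MHC class II and leukocyte lists and above that of the constitutive core proteasome.

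Across the 12 libraries, 9 of the 10 genes followed their common profile, the mean of the 10 standardised log2(FPKM + 1) values, with Pearson correlations from 0.89 for H2-D1 to 0.98 for Tapbp. B2m was the least alike (0.46). The 12 points share the genotypes, depth and cell mixtures of the libraries, and the members are part of the profile. Among all other tested genes, the 8 most alike were Il18bp (0.99), Sdc3, Paqr4, H2-Q4, Myo1c, Gm20496, Abtb2 and Gm11131 (0.98 to 0.99). Il18bp, which encodes the binding protein of interleukin-18, remained the most alike after the group means were subtracted (0.99) and after median-of-ratios scaling (0.99). With the ranks of the 12 libraries in place of the values, Il18bp was in place 2 and the other 7 in places 11 (Gm11131) to 314 (Abtb2), so most of the 8 rest on the measure used. Gm20496 overlaps exons of Psmb8 and Tap2 on the other strand. Taken singly, the gene most like H2-K1 was Gpr171, and H2-D1 was followed by Acap3, B2m by Notch1, Tap1 by Gm4951, Tap2 by Atp6ap2, Tapbp by Il18bp, Psmb8 by Gm20496, Psmb9 by Ctdnep1, Psmb10 by Szrd1 and Nlrc5 by Gucy2c (0.98 to 0.99).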

How the data were processed

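Prostate RNA of 12 mice, 3 per genotype, was sequenced as bulk RNA-seq. Libraries were made with the TruSeq RNA v2 kit, by the study's methods, and this kit's standard protocol does not mark strand. Paired reads were aligned with STAR (version 2.5.2b in the submitters' processing notes, genome GRCm38) and counted per gene with RSeQC. The gene models are not given in the sources used here. The values the authors deposited are FPKM, fragments divided by exon length and library total, and all of them (100%) gave back whole fragments within 1e-05. Groups came from the sample labels. The 17623 genes with at least 0.42 CPM in 3 libraries and 15 fragments in all were compared on log2(FPKM + 1) by limma's trend fit of 4 group means over 12 libraries, with Benjamini-Hochberg adjustment and a threshold of 0.05. Ratios within libraries were compared by two-sided exact permutation tests. The 10 genes and all lists were chosen with earlier results of these data known. The text names the 10 genes, the 2 largest called rises and falls of each other list for the transgene (the 2 smallest p where none was called) and the 8 most correlated genes. The alternatives tried were median-of-ratios scaling, totals without genes above 1%, a pseudocount of 0.1, no filter, a minimum of 10 fragments per library, a fit of the compared groups alone, the replicate number as a block, limma voom on the fragments, a threshold of 0.001 and leaving out each library. Both tests were tested on simulated data. Of the listed symbols, H2-L was not matched and Adgre1 was matched as EMR1. Some results for single genes of these lists are not reported here. Nothing says which mice shared a litter or batch, so p-values measure the spread between these libraries. The depth of 19747635 to 32565774 fragments limits low genes such as Nlrc5, and fragments are not independent molecules. Software: limma 3.58.1 in R 4.3.3, and numpy 2.4.6, pandas 2.3.3 and matplotlib 3.10.9 in Python 3.11.15.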

Additional observations from a re-analysis of the deposited data

How the results depend on the processing

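The count of the 10 genes called higher for the transgene was 8 to 10 under every alternative at a threshold of 0.05. With 1 library left out it was 8 to 9, where 18.5% to 37.8% of all tested genes were called higher. Brackets below give the number of tested genes called higher, of 17623 unless stated. At 0.001 the count of the 10 was 0, as in every other comparison. In Pb-ERG;Trp53pc-/- against WT it was 7 in the main fit (3880). There it was 4 after median-of-ratios scaling (1424) and 3 to 9 with 1 library left out (1115 to 4793). In Pb-ERG;Trp53pc-/- against Trp53pc-/- it was 6 in the main fit (3289). There it was 3 after median-of-ratios scaling (1458) and 3 with totals without genes above 1% (1544). With 1 library left out it was 3 to 8 (1472 to 4045). In Pb-ERG against WT it was 0 in the main fit (353). There it was 2 with a pseudocount of 0.1 (614) and 1 with at least 10 fragments in every library (395 of 14081). With 1 library left out it was 0 to 9 (57 to 3118). The other 4 comparisons gave 0 throughout. The causes of these changes were not tested.

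The labels do not say that a replicate number pairs mice. Residuals of same-numbered libraries correlated between -0.24 and 0.37 (median 0.091, against -0.054 for other pairs), so the numbers were not taken as pairs, although replicate 1 of all 4 genotypes shared its H2-Eb1/H2-Ab1 ratio. With the replicate number as a block, 9, 7, 5 and 0 of the 10 genes were called for the transgene, in Pb-ERG;Trp53pc-/- against WT, against Trp53pc-/- and in Pb-ERG against WT. Of the 17623 tested genes, 4512, 3083, 2715 and 293 were called higher with this block. Within replicate numbers, 216 regroupings allow no unadjusted p below 0.00926 in the exact permutation test of the ratios. The log2 ratio differences for the transgene (2.25 for Psmb8/Psmb5, 1.51 for Psmb9/Psmb6 and 1.14 for Psmb10/Psmb7) then had an adjusted p of 0.0556 each (exact permutation test within replicate numbers). With 1 library left out they ranged from 2.10 to 2.59, 1.40 to 1.80 and 1.005 to 1.33, Tap1/Tap2 from 0.40 to 0.86, H2-K1/B2m from 0.92 to 1.49 and H2-D1/B2m from 0.53 to 1.36. For the deletion the ranges were -0.092 to 0.65 (Psmb8/Psmb5), -0.14 to 0.39 (Psmb9/Psmb6), 0.35 to 0.76 (Psmb10/Psmb7), 0.02 to 0.45 (Tap1/Tap2), -0.034 to 0.56 (H2-K1/B2m) and -0.036 to 0.81 (H2-D1/B2m).
With the H2-Eb1/H2-Ab1 split as a block, an alternative chosen after seeing the data, differences between Trp53pc-/- and WT changed sign for H2-D1 (-0.25), B2m (0.052), Tap1 (-0.59), Tap2 (-0.16), Psmb8 (-0.14), Psmb9 (-0.23) and Nlrc5 (-0.47), and the non-additive effect of H2-D1 became 0.30. After median-of-ratios scaling Tap2 in Trp53pc-/- against WT was at -0.028. With 1 library left out, that difference ranged from -0.050 to 0.11 for Tap2 and from -0.14 to 0.063 for Tapbp. None of these differences passed the threshold. Over all alternatives, single genes changed sign 0 times in the comparisons of the transgene and of Pb-ERG;Trp53pc-/- or Pb-ERG against WT, 12 times of 209 in Trp53pc-/- against WT, 13 of 209 in Pb-ERG;Trp53pc-/- against Pb-ERG, 17 of 199 for the deletion average and 25 of 199 for the non-additive effect.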
